A study of Saccharomyces cerevisiae with 71 samples.

Results

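Histidine depletion was followed in a gcn2Δ strain and in the wild-type strain of Saccharomyces cerevisiae on 12 of the 71 arrays of the series, chosen by the -H in their titles. Both strains are prototrophic derivatives of the same parent, EG328-1A, with LEU2, TRP1 and URA3 restored. WY799, the gcn2Δ strain, carries URA3 in place of GCN2, and WY798 is its isogenic GCN2 wild type. Each strain was grown to mid-log phase at 30 °C in synthetic complete medium and then shifted to the same medium without His, and cells were taken at 15 and 60 min. For each strain there were 2 arrays of the culture before the shift (0 min), 2 arrays at 15 min and 2 arrays at 60 min. The 2 arrays of a culture carried the same RNA with the dyes exchanged, so that total tRNA carried Cy3 on one, called the Cy3 array here, and Cy5 on the other, the Cy5 array. Each combination of strain, medium and time is called a culture here, although the times of a strain may be samples of 1 growing culture. There was therefore 1 culture per strain and time, and nothing in the labels names a replicate culture.

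Histidyl-tRNA synthetase joins His to its cognate tRNA, which differs from other tRNAs by an extra guanosine at its 5′ end. Gcn2 is a protein kinase with a domain that resembles this synthetase. The domain binds uncharged tRNA, and the kinase then phosphorylates the initiation factor eIF2, which allows translation of the transcription factor Gcn4 and induction of the amino acid biosynthesis genes, those of the His pathway among them. Prototrophic yeast makes His from phosphoribosyl pyrophosphate and ATP, with glutamine as a nitrogen donor and glutamate for a transamination. In the assay, periodate oxidizes the 3′ end of uncharged tRNA, so that only tRNA protected by its amino acid can afterwards be ligated to a labelled oligonucleotide. The microarray then compares the ligated, charged tRNA with the total tRNA of the culture.

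Each of the 41 probes is named by an amino acid and a number, and the files do not give the anticodon or sequence behind a name. His is represented by a single probe, His-3. Met has the probes Met-5 and Met-6, and which one is the initiator tRNA is not given in the files. Sec-2 is named so in the files, although S. cerevisiae has no known selenocysteine tRNA. The deposited value is the charged over total tRNA of a sample divided by that of its 0 min culture, in the matching dye orientation, and the log2 of that ratio is called the charging change below. All 164 values of the reference arrays were exactly 1, so the reference contributes no measured spread. The median over probes of every -H array was 1, and a change shared by all tRNAs would therefore not be seen. A lower charged amount and a higher total amount of a tRNA cannot be told apart in this ratio. The number of arrays limits the precision.

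The 4 -H cultures differed in how well their exchanged dyes matched, and the direction of the arrays is not settled by their values alone. Across the 41 probes the charging changes of the 2 arrays correlated at -0.28 in gcn2Δ and 0.83 in wild type at 15 min, and at 0.11 in gcn2Δ and 0.08 in wild type at 60 min. In the 16 other depleted cultures with both orientations this r lay between -0.48 and 0.96, with a median of 0.38. In the Cy3 orientation, the gcn2Δ profile ran against the wild-type profile at both times, with r of -0.61 at 15 min and -0.67 at 60 min, although each strain had its own reference array. In the Cy5 orientation the same comparison gave 0.56 and 0.43. The His arrays were used as deposited, so every sign, rank and order of their values below holds for that direction. The Cy5 arrays of the Trp experiment, which likely hold the inverse ratio, were turned. This turn enters the r range above and every comparison, range and rank below that includes the Trp experiment. For the leading tRNAs the values with the Cy5 arrays of the His experiment turned, or with the Cy3 arrays of gcn2Δ turned, are given beside them. The profiles at 15 and 60 min of a strain share a reference array and were not correlated with each other.

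His-3, the tRNA of the depleted amino acid, had means between -0.26 and 0.08 in the 4 cultures. Its single arrays ran from -0.40 to 0.31 and mostly differed in sign within a culture, so its direction was not settled. In gcn2Δ at 15 min its charging change was 0.28 on the Cy3 array and -0.25 on the Cy5 array, a mean of 0.02. In wild type at 15 min it was -0.40 and -0.12, a mean of -0.26, and both arrays lay below the reference. In gcn2Δ at 60 min it was 0.05 and -0.35, a mean of -0.15, and in wild type at 60 min it was -0.14 and 0.31, a mean of 0.08. Wild type at 15 min was thus the single culture whose arrays shared a sign for His-3. The deposited ratios of that culture were 0.758 and 0.920. With the Cy3 arrays of gcn2Δ turned, an alternative added after the opposed strain profiles were seen, the mean for His-3 in gcn2Δ became -0.27 at 15 min and -0.20 at 60 min.

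No loss of His-tRNA charging was detected against cultures that kept His. The comparison set was the 8 cultures of the same time point depleted of Trp, of Arg, of Trp, Phe and Tyr together, or of Arg with ornithine added, in both strains, and limma with Benjamini-Hochberg adjustment over the 41 probes estimated their spread. The lone His culture is assumed to vary like them. At 15 min, however, the comparison cultures without Trp, Phe and Tyr, and those with ornithine, were measured on a Cy3 array alone. At 60 min this held for the wild-type cultures of these media. The His values are means of both orientations. At 15 min His-3 differed from the mean of the 8 cultures by 0.00 in gcn2Δ (95% confidence interval -0.41 to 0.40, adjusted p = 0.986) and by -0.28 in wild type (-0.68 to 0.12, adjusted p = 0.475). At 60 min the difference was -0.24 in gcn2Δ (-0.65 to 0.17, adjusted p = 0.982) and -0.01 in wild type (-0.42 to 0.40, adjusted p = 0.956). The lowest of these bounds, in wild type at 15 min, corresponds to a 1.60-fold lower ratio. Over all 22 other depleted cultures of the series His-3 lay between -0.30 and 0.30, a range that holds all 4 of its values under His depletion. His-3 ranked 24th from the top of the 41 probes in gcn2Δ and 39th in wild type at 15 min, and 33rd in gcn2Δ and 15th in wild type at 60 min.

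Taken over both strains and both times, His-3 averaged a little lower in the medium without His. Its mean over 15 and 60 min was -0.07 in gcn2Δ and -0.09 in wild type, against -0.07 to 0.13 in the 8 strain-by-medium means of the comparison set, so the wild-type mean lay just below that range and the gcn2Δ mean inside it. The difference was -0.13 (95% confidence interval -0.29 to 0.02, limma adjusted p = 0.625). The exact two-sided permutation test over the 45 ways to choose 2 of the 10 means gave p = 0.0444 before and 0.651 after adjustment over the 41 probes. Those splits treat the strains of a medium as free units. When whole media were exchanged, 1 of 5 with both strains together, the exact two-sided permutation p for His-3 was 0.2, which is the smallest that this design allows. With the Cy3 arrays of gcn2Δ turned, the mean of His-3 was -0.23 in gcn2Δ and the difference -0.22 (limma adjusted p = 0.172, unadjusted 0.0172), with 11 probes at an unadjusted p under 0.05, against 1 as deposited. With the Cy5 arrays of both strains turned the difference was -0.03 (limma adjusted p = 0.911). Ser-8, a Ser tRNA, gave the same exact permutation p values of 0.0444 and 0.2 with a mean 0.21 higher without His (limma adjusted p = 0.625), and in this comparison limma called 0 of the 41 probes in each of these settings.

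**Figure D1:**
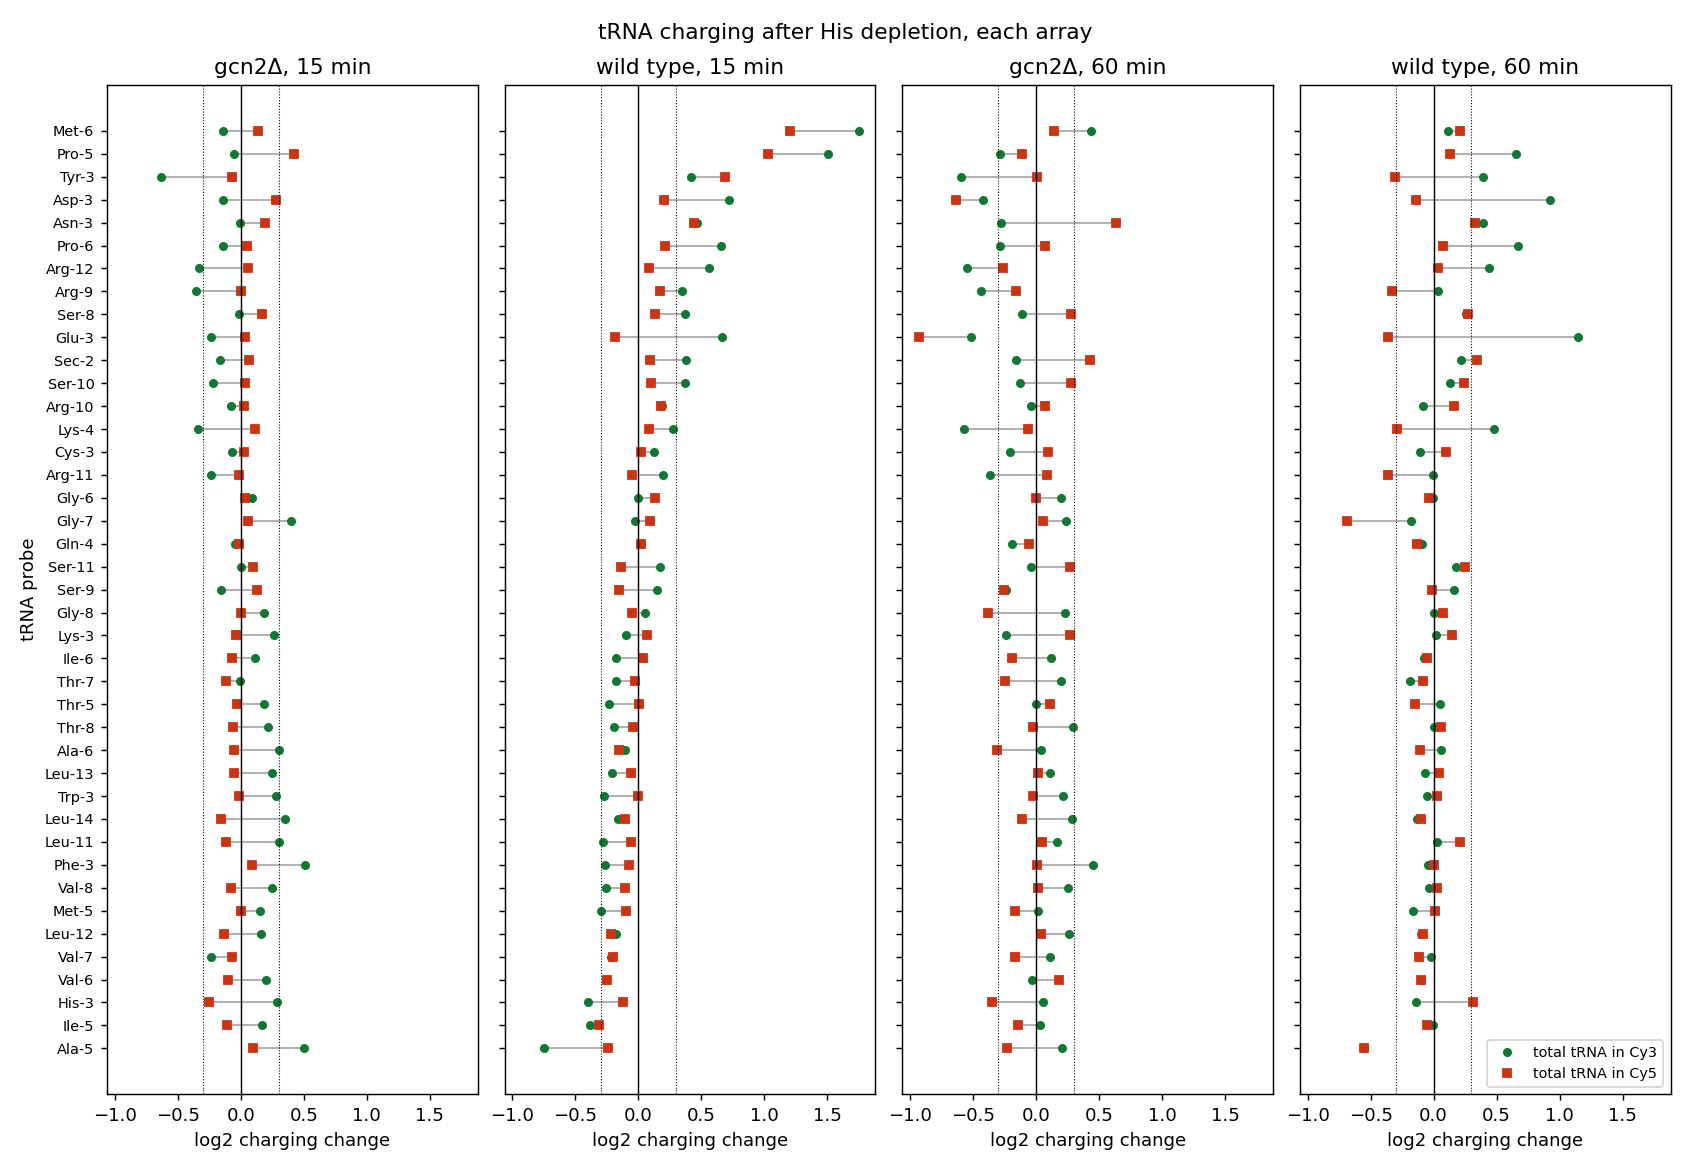
Charging change (log2, x axis) of each of the 41 tRNA probes (y axis, ordered by the wild-type culture at 15 min) on the Cy3 array (green circles, total tRNA labelled with Cy3) and the Cy5 array (red squares), for gcn2Δ and wild type at 15 min and at 60 min; a grey line joins the 2 arrays of a culture, and dotted lines mark 0.3 above and below the reference. In wild type at 15 min Met-6 and Pro-5 stand above 1 on both arrays, while His-3 lies between -0.40 and 0.31 on all 8 arrays.

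In none of the 4 cultures did a tRNA pass the test against the 8 comparison cultures. The limma test called 0 of 41 probes (0%) in each, with 0 probes in gcn2Δ and 2 in wild type at an unadjusted p under 0.05 at 15 min, and 0 in gcn2Δ and 1 in wild type at 60 min. An exact permutation of 1 culture against 8 cannot go below p = 0.111. As a description without a test, probes were also counted whose charging change had the same sign on both arrays and was at least 0.3 on each, called the size rule here. By this rule gcn2Δ at 15 min had 0 of 41 probes (0%), wild type at 15 min had 5 (12.2%), gcn2Δ at 60 min had 2 (4.88%) and wild type at 60 min had 2 (4.88%). Over the 16 other cultures with both orientations the count was between 0 and 10, with 48 of 656 probe values (7.32%) past the rule, so wild type at 15 min is the His culture that lies above that share. The spread of the profile showed the same order, with an SD over probes of 0.13 in gcn2Δ and 0.38 in wild type at 15 min, and of 0.21 in gcn2Δ and 0.20 in wild type at 60 min. The other 22 depleted cultures had SDs between 0.076 and 0.93, with a median of 0.22.

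**Figure D2:**
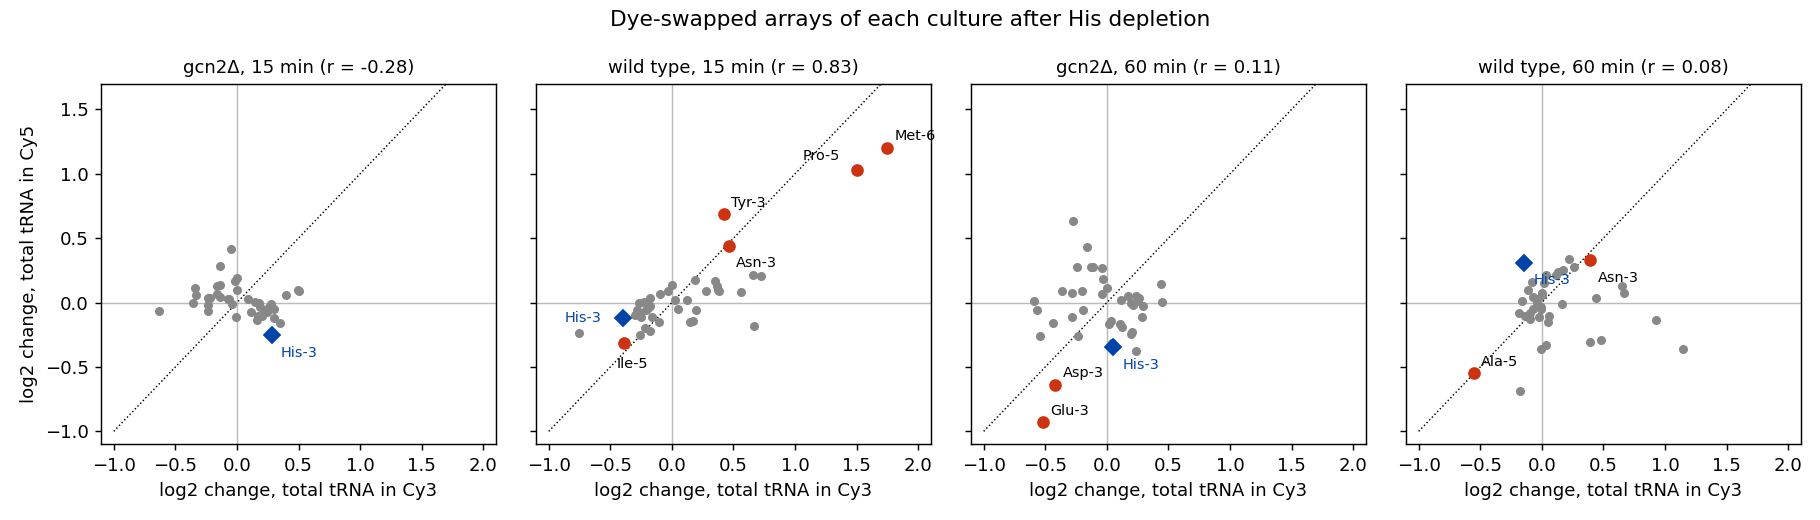
Charging change (log2) of the 41 probes on the Cy5 array (y axis) against the Cy3 array (x axis) of a culture, named by the dye of total tRNA, with r across probes above each panel; red points are the probes at least 0.3 from the reference with the same sign on both arrays, the blue diamond is His-3, and the dotted line marks equal values. The arrays follow each other in wild type at 15 min, where r is 0.83, and in the other 3 cultures r lies between -0.28 and 0.11.

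In gcn2Δ at 15 min no tRNA passed the size rule. Of the 41 probes, 11 had the same sign on both arrays, against 30 in wild type. The largest means were -0.35 for Tyr-3, from -0.63 and -0.07, then 0.30 for Ala-5, from 0.50 and 0.10, and 0.30 for Phe-3, the only Phe probe, from 0.51 and 0.09. Each came mainly from the Cy3 array. The hydrophobic class (Ile, Leu, Met, Phe, Trp and Val) lay on opposite sides by dye, with 11 of 13 probes above the reference on the Cy3 array and 10 of 13 below it on the Cy5 array.

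In gcn2Δ at 60 min the tRNAs past the size rule were those of the acidic amino acids, both below the reference. Glu-3 had ratios of 0.698 and 0.526, charging changes of -0.52 and -0.93 with a mean of -0.72. Asp-3 had ratios of 0.748 and 0.643, charging changes of -0.42 and -0.64 with a mean of -0.53. In the comparison set only gcn2Δ depleted of Arg for 60 min had a lower Glu-3, at -1.21. Its Asp-3 of -0.88 was also the lowest. The study reports reduced charging of both tRNAs in gcn2Δ without Arg. The second lowest culture for both was wild type without Trp, Phe and Tyr, at -0.41 for Glu-3 and -0.76 for Asp-3. Neither probe was called. In the gcn2Δ culture without His, Arg-12 was next, at -0.55 and -0.26 with a mean of -0.40. Of the 8 probes for charged amino acids, 5 were below the reference on both arrays and 0 above on both, with a median of -0.31 beside -0.01 over all probes. Over all 41 probes 8 were below and 7 above on both. With the Cy5 arrays turned, or with the Cy3 arrays of gcn2Δ turned, no probe of this culture passed the size rule.

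The profile of wild type at 15 min was led by tRNAs for amino acids that remained in the medium. In gcn2Δ at the same time the tRNAs concerned averaged 0.00 for Met-6, 0.18 for Pro-5, -0.35 for Tyr-3, 0.09 for Asn-3 and 0.03 for Ile-5. In wild type they lay farther from the reference. Met-6, one of the Met probes, had deposited ratios of 3.36 and 2.30 on its Cy3 and Cy5 arrays, a mean charging change of 1.48 or 2.78-fold. Pro-5, one of the Pro probes, had ratios of 2.84 and 2.04, a mean of 1.27 or 2.40-fold. Both probes were far above the rest of the profile on both arrays. Tyr-3, the only Tyr probe, followed at 0.42 and 0.68 with a mean of 0.55, and Asn-3, the only Asn probe, at 0.46 and 0.44 with a mean of 0.45. Ile-5 was the single probe past the size rule on the lower side, at -0.39 and -0.31. The orientations of this culture correlated at 0.83 as deposited. With its Cy5 array turned no probe passed the size rule, and the means were 0.27 for Met-6, 0.24 for Pro-5, -0.13 for Tyr-3, 0.01 for Asn-3 and -0.04 for Ile-5.

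Against the comparison cultures Pro-5 came nearest to a call. At 15 min the comparison set had Cy5 arrays in the Trp and Arg experiments only. A fit on Cy5 arrays alone therefore held fewer comparison cultures than one on Cy3 arrays alone. Pro-5 in wild type at 15 min lay 1.46 above the mean of the 8 cultures (95% confidence interval 0.73 to 2.19, limma adjusted p = 0.0510), whose own values ran from -0.55 to 0.47. It was called when arrays were centred on their mean (adjusted p = 0.0208), in the Cy3 arrays alone (adjusted p = 0.0144), against dye-swapped cultures alone (adjusted p = 0.0454) and without the gcn2Δ culture depleted of Arg with ornithine (adjusted p = 0.00389). It was not called in the Cy5 arrays alone (difference 1.21, adjusted p = 0.185), without the Trp experiment (adjusted p = 0.188) or with both times together (adjusted p = 0.346). The difference was 0.43 (adjusted p = 0.990) with the His Cy5 arrays turned. Leaving out each comparison culture in turn gave adjusted p between 0.00389 and 0.105 in limma, and over all alternatives run the range was 0.00389 to 0.990. Its 1.27 was the highest value of Pro-5 in any of the 26 depleted cultures, and the next was 0.53 in wild type depleted of Arg for 60 min. It ranked 4th, at 0.24, with the His Cy5 arrays turned.

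Met-6 varied widely without His depletion as well. It lay 1.46 above the comparison mean (95% confidence interval -0.06 to 2.99, limma adjusted p = 0.475), or 0.26 with the His Cy5 arrays turned, and the 8 cultures ran from -0.89 to 1.48. The upper end is wild type depleted of Trp, Phe and Tyr at 15 min, measured on 1 array, so the same probe reached the same height there. Over the 22 other depleted cultures Met-6 spanned -1.68 to 1.48, and the lowest value was in gcn2Δ depleted of Trp for 60 min. For that culture the study reports a large loss of initiator tRNA charging. Met-5, the other Met probe, lay on the other side of the reference, with -0.30 and -0.10 in wild type at 15 min, a mean of -0.20 that was the lowest of Met-5 in the 26 cultures as deposited, and 22nd from the top at -0.10 with the His Cy5 arrays turned.

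Tyr-3 and Pro-6 gave smaller values of the same sign as Pro-5. The mean of 0.55 for Tyr-3 was the highest of the 26 cultures, ahead of 0.46 in gcn2Δ depleted of Arg with ornithine at 15 min (difference from the 8 cultures 0.76, limma adjusted p = 0.475). With the His Cy5 arrays turned it ranked 13th, at -0.13, and the difference was 0.08. The 8 cultures ran from -0.82, in gcn2Δ without Arg, to 0.46, which came from a Cy3 array alone. They include the medium without Trp, Phe and Tyr, where Tyr-3 was -0.64 in gcn2Δ and -0.26 in wild type. Pro-6, the second Pro probe, had 0.66 and 0.21 on the Cy3 and Cy5 arrays, and it lay 0.45 above the comparison mean (limma adjusted p = 0.475). Ala-5, an Ala probe, was the lowest probe of the culture at -0.75 and -0.24, a mean of -0.49. It lay below each of the 8 comparison cultures, which ran from -0.16 to 0.27, but did not pass the limma test (adjusted p = 0.397, unadjusted 0.0193). Ala-6, the other Ala probe, was at -0.10 and -0.15.

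**Figure D3:**
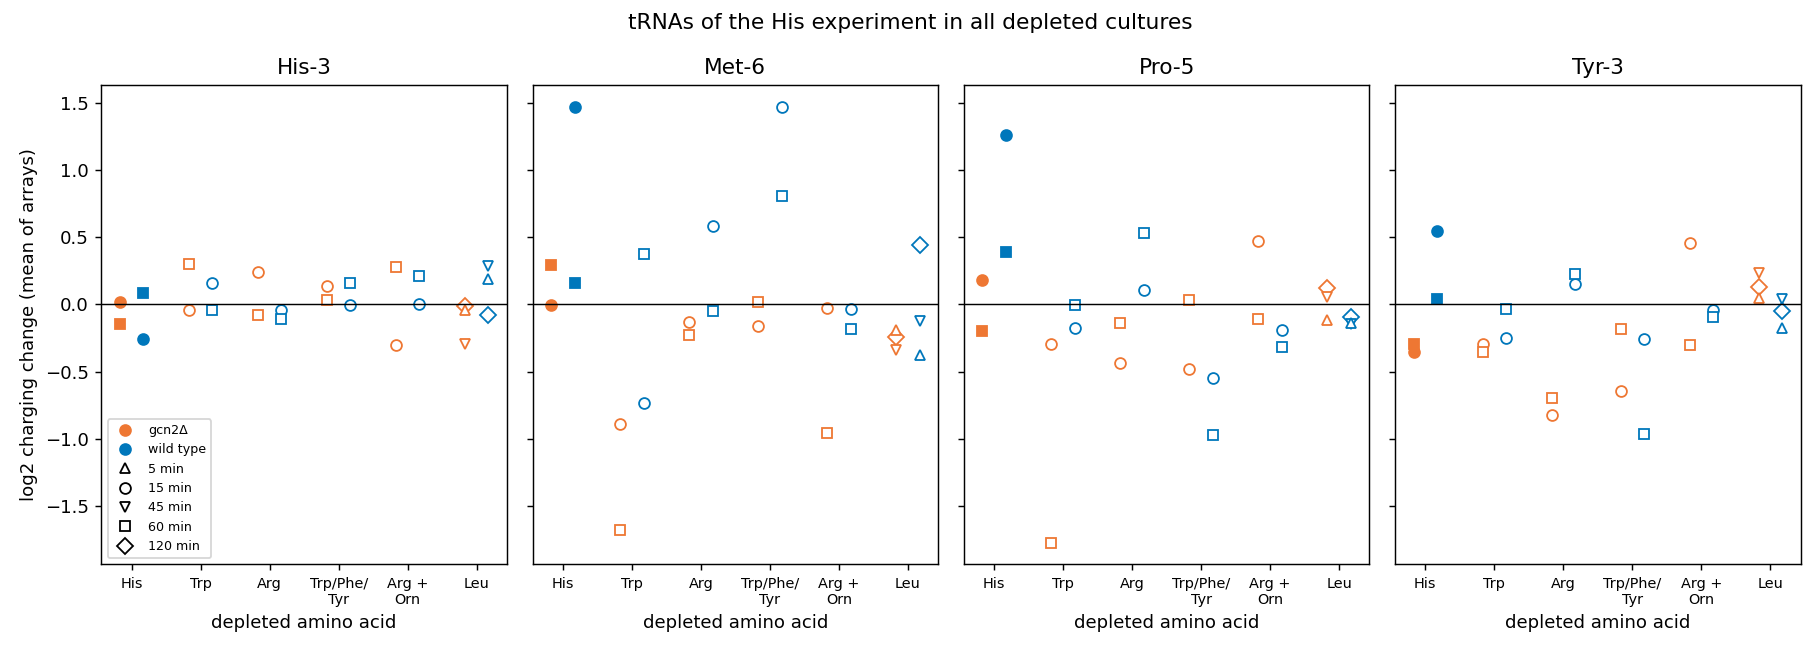
Mean charging change (log2, y axis) of His-3, Met-6, Pro-5 and Tyr-3 in each of the 26 depleted cultures, by depleted amino acid (x axis), with gcn2Δ in orange on the left and wild type in blue on the right of each position; marker shapes give the time and filled markers are the His cultures. Pro-5 is highest in wild type without His at 15 min, Met-6 is as high without Trp, Phe and Tyr, and His-3 stays between -0.30 and 0.30 throughout.

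By amino acid class, tRNAs for hydrophobic residues lay mostly below the reference in wild type at 15 min and those for charged residues mostly above it. Over all 41 probes 15 were above and 15 below on both arrays. Of the 13 probes for Ile, Leu, Met, Phe, Trp and Val, 10 were below the reference on both arrays and 1, Met-6, was above on both, with a median of -0.17 beside 0.00 over all 41 probes. All 4 Leu probes and all 3 Val probes were below on both arrays, with family medians of -0.15 and -0.21. Leu-13, Leu-14, Val-6, Val-7 and Met-5 each had their lowest value of the 26 cultures here, and Val-6 was the lowest of them at -0.25. These 5 probes lay between -0.10 and -0.01 with the His Cy5 arrays turned, and none was then at its lowest. Of the 8 probes for Arg, Asp, Glu and Lys, 5 were above on both arrays and 0 were below on both, with a median of 0.21. Arg-12 had 0.56 and 0.08, and its mean of 0.32 was the highest of Arg-12 in the 26 cultures, as it was with the His Cy5 arrays turned, at 0.24. Asp-3, the only Asp probe, had 0.72 and 0.21 and a mean of 0.46. The SD over probes was 0.48 on the Cy3 array and 0.31 on the Cy5 array.

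At 60 min the wild-type profile held fewer tRNAs that both arrays placed on one side. Ala-5 was the lowest, at -0.55 on both arrays (limma adjusted p = 0.770), and it ranked last of the 41 probes at both times. Asn-3 was again above the reference, at 0.39 and 0.33 with a mean of 0.36 (limma adjusted p = 0.770). Met-6 was at 0.11 and 0.21 and Pro-5 at 0.65 and 0.13. The 2 highest means belonged to probes on which the arrays had opposite signs: Glu-3, the only Glu probe, had 1.15 and -0.36, and Asp-3 had 0.92 and -0.14. In gcn2Δ both probes were below the reference on both arrays. Gly-7, a Gly probe, had -0.18 and -0.69. Of the 4 Ser probes, 3 were above the reference on both arrays, with a median of 0.20 beside -0.01 over all probes, and over all 41 probes 12 were above and 12 below on both. Ser-8 was the 1 probe at an unadjusted p under 0.05, with a mean of 0.27 against -0.26 to 0.03 in the comparison cultures (limma adjusted p = 0.770).

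The difference between 60 and 15 min leaves out the reference array, and in wild type it was negative for Met-6 and Pro-5, which led at 15 min. Both were picked for their 15 min values, which this difference subtracts, so a negative sign was favoured in advance. For Met-6 the difference was -1.63 on the Cy3 arrays and -0.99 on the Cy5 arrays, a mean of -1.31, below the range of -0.93 to 1.11 in the 8 comparison pairs. For Pro-5 it was -0.85 and -0.89, a mean of -0.87, which lies inside the range of -1.48 to 0.52. Arg-9, an Arg probe, was the third of the 41 probes past the size rule, with -0.31 and -0.50. The same count was not made for the comparison pairs. Neither Met-6 nor Pro-5 passed the limma test of this difference (adjusted p = 0.998 for each), which called 0 of 41 probes in either strain, with 0 at an unadjusted p under 0.05. Across probes the orientations correlated at 0.17 in gcn2Δ and 0.58 in wild type, and in gcn2Δ 0 probes passed the size rule. For His-3 the difference was -0.16 in gcn2Δ and 0.34 in wild type, against -0.32 to 0.58 in the comparison pairs.

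**Figure D4:**
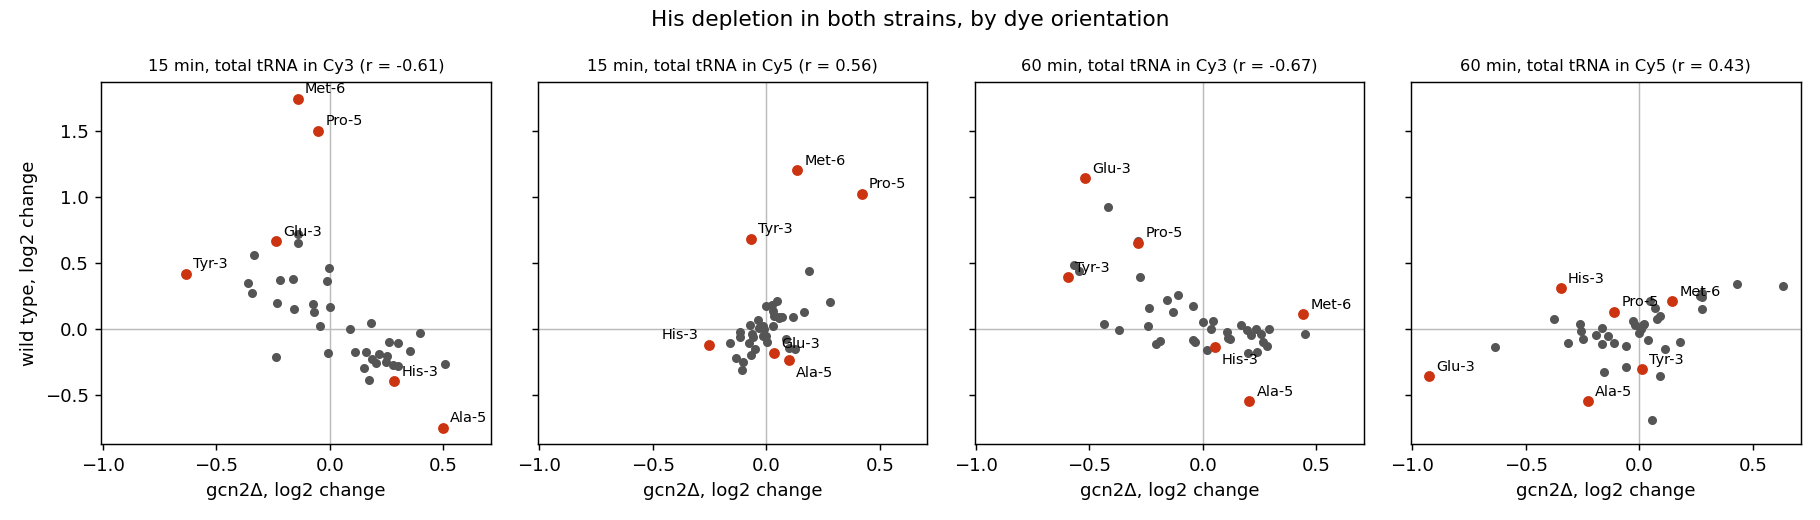
Charging change (log2) of the 41 probes in wild type (y axis) against gcn2Δ (x axis) after His depletion, for each time and dye orientation, with r across probes above each panel; 6 named probes are in red. The profiles of the strains run against each other on the Cy3 arrays and along each other on the Cy5 arrays.

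Between the strains, the sign of the relation depended on the dye. At 15 min 36 of 41 probes had opposite signs in gcn2Δ and wild type on the Cy3 arrays, against 12 on the Cy5 arrays. At 60 min the numbers were 30 and 13. In the 4 comparison experiments the same correlation between strains lay between -0.04 and 0.78 over 12 pairs of arrays. In the Leu experiment, sampled at other times and with an unsettled direction of its Cy5 arrays, it lay between -0.68 and -0.17 on 3 pairs of Cy3 arrays and between -0.19 and 0.17 on 3 pairs of Cy5 arrays. Opposed strain profiles on Cy3 arrays were therefore also seen in a medium that kept His. The part of the dye in this pattern was not tested.

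The strain difference was taken as gcn2Δ minus wild type on arrays of the same orientation. At 15 min it passed the size rule for 4 probes. The wild-type values for which Met-6 and Pro-5 were picked enter this difference as well. Met-6 was -1.89 and -1.07, a mean of -1.48, and Pro-5 was -1.56 and -0.61, a mean of -1.08. Tyr-3 averaged -0.90, and Ala-5, with 0.79, was the 1 probe higher in gcn2Δ. Across probes the orientations gave this difference with an r of 0.62. With the His Cy5 arrays turned 0 probes passed the rule, and with the Cy3 arrays of gcn2Δ turned 2 did, Met-6 and Pro-5. The same strain difference in the 4 comparison experiments ran from -1.64 to 0.01 for Met-6, which therefore holds the His value, and from -0.55 to 0.66 for Pro-5, which does not. Neither passed the limma test of 1 experiment against 4 (adjusted p = 0.854 for each, unadjusted 0.0508 for Pro-5), which called 0 of 41 probes with 0 at an unadjusted p under 0.05. An exact permutation over 1 against 4 cannot go below p = 0.2.

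At 60 min 5 of 41 probes had a strain difference past the size rule. Glu-3 was -1.66 and -0.57, a mean of -1.12, and Asp-3 averaged -0.92 and Arg-12 -0.64. Ala-5 with 0.54 and Gly-7 with 0.58 were higher in gcn2Δ. Ala-5 was thus the probe past the rule at both times, with the same sign. Both times of a strain share their 0 min arrays, so these 2 differences are not independent. With the His Cy5 arrays turned the probes past the rule were 3 others, Arg-11, Asn-3 and Tyr-3, and with the Cy3 arrays of gcn2Δ turned they were 4, Ala-5, Arg-11, Asp-3 and Glu-3. The orientations correlated at 0.20, and limma called 0 of 41 probes, with 0 at an unadjusted p under 0.05 (lowest adjusted p = 0.976). For His-3 the strain difference was 0.68 and -0.13 at 15 min and 0.19 and -0.66 at 60 min, opposite signs by dye at both times.

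The amino acids tied to His synthesis gave no common shift. Trp shares the precursor phosphoribosyl pyrophosphate with His, and Gln and Glu each donate nitrogen in His synthesis. In gcn2Δ, Trp-3 averaged 0.13 at 15 min and 0.10 at 60 min, and in wild type -0.14 and -0.01. Gln-4 averaged -0.03 and -0.12 in gcn2Δ and 0.02 and -0.11 in wild type. Glu-3 averaged -0.10 and -0.72 in gcn2Δ and 0.24 and 0.39 in wild type, with opposite signs by dye in 3 of these 4 cultures. The test against the comparison cultures decides little for Trp-3 and Glu-3, because that set includes media without Trp and without Arg. At 15 min Trp-3 ran from -1.02 to 0.38 in that set and Glu-3 from -1.20 to 0.47. Between synthetase classes the medians also lay close together: the 20 probes of class I had 0.01 in gcn2Δ and -0.10 in wild type at 15 min, and the 20 probes of class II, which includes His, had 0.08 and 0.01.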

How the data were processed

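For each probe the authors deposited a linear ratio, charged over total tRNA at a time point divided by that of its own 0 min culture in the matching orientation, scaled to a median of 1 on every -H array. Scanner and background correction are not given in the sources used here. No value was missing, and 0 columns belonged to no sample. Ratios were log2 transformed and median-centred per array, and a culture with 2 arrays entered as their mean, 1 replicate. The Cy5 arrays of the Trp experiment, which likely hold the inverse ratio, were turned, and the His arrays were used as deposited. Linear models were fitted with limma 3.58.1 (lmFit, eBayes) under R 4.3.3. P-values were adjusted by Benjamini-Hochberg over 41 probes with a threshold of 0.05, and the script was tested on simulated data. P-values measure the spread between single cultures of other media. Named tRNAs were His-3, any tRNA called or past the size rule (0.3 on each array), the 3 largest changes per culture, other probes of the same amino acids, and those tied to His synthesis. Members, lists and rules were chosen with earlier results of these data known. Amino acid classes follow the study's heat maps, and other tRNAs are named where a class or family is described.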

Additional observations from a re-analysis of the deposited data

How the results depend on the processing

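No paired analysis was possible because the labels give dye orientations and name no replicate culture. Strain differences were taken within each medium, and a fit of 4 against 16 cultures with strain and medium as a random block called 0 tRNAs (lowest adjusted p = 0.687). The limma count of 0 called tRNAs held under every alternative in 8 of the 9 comparisons. In wild type without His at 15 min it became 1 (Pro-5) with mean centring, with Cy3 arrays alone, against dye-swapped cultures alone, and when the gcn2Δ culture depleted of Arg with ornithine was left out, so the count lay between 0 and 1 over the cultures left out in turn and at 0 elsewhere. The number of tRNAs past the size rule was 4 (gcn2Δ, 60 min), 9 (wild type, 15 min) and 4 (wild type, 60 min) at 0.2 on each array, and 1, 2 and 1 at 0.5. It was 1 in wild type at 60 min with mean centring. With the His Cy5 arrays turned it was 0 in gcn2Δ at 60 min and 0 in wild type at 15 min, and His-3 in gcn2Δ at 60 min was 0.20. Turning those arrays left the differences in wild type at 15 min at 0.26 for Met-6, 0.43 for Pro-5, 0.08 for Tyr-3 and -0.03 for Ile-5. It also reversed the difference from the comparison cultures for Asp-3 (0.37) and Glu-3 (0.43) in gcn2Δ at 60 min, Asn-3 in wild type at 15 min (-0.016) and Ala-5 in wild type at 60 min (0.058). Alternatives added after seeing the data also turned signs. With the gcn2Δ Cy3 arrays turned, Asp-3 was 0.15 and Glu-3 0.018 in gcn2Δ at 60 min, and 0 tRNAs there passed the size rule. With all His arrays turned, Asp-3 was 0.79 and Glu-3 0.95 in gcn2Δ at 60 min, and in wild type Asn-3 was -0.48, Ile-5 0.35, Met-6 -1.49, Pro-5 -1.07 and Tyr-3 -0.34 at 15 min, and Ala-5 0.61 and Asn-3 -0.33 at 60 min. These reversals follow from the turned sign itself, and the cause of the other shifts was not tested. Signal over background was not analysed here, and 1 culture per condition limits every comparison.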
